A study of Mus musculus with 23 samples.

Results

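The genes described here encode the proteins of the cytosolic ribosome, read in whole hearts of mice from 2 models of a heart failure that keeps the ejection fraction (HFpEF). They were chosen by gene symbol alone: Rpl, Rps or Rplp with a number, or Rpsa, with the close paralogues Rpl3l, Rpl22l1, Rps27l, Rpl39l, Rpl10l, Rpl7l1, Rps4l, Rpl6l, Rpl32l and Rps12l1, and without named pseudogenes or the Rps6 kinases. The rule found 86 of the 55487 genes in the deposited table, of which 43 encode large-subunit proteins, 30 small-subunit proteins and 3 proteins of the stalk, and 10 are the paralogues.

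In 1 model, db/db+Aldo, Leprdb/db mice on C57BL/6J, which lack a working leptin receptor, carried minipumps giving aldosterone at 0.3 µg/h for 4 weeks from 12 weeks of age (n = 8), and the sham controls were wild-type C57BL/6J mice with vehicle pumps of saline and ethanol over the same time (n = 7). In the other, HFD+L-NAME, wild-type C57BL/6J mice were fed a diet with 60 kcal% fat and given L-NAME, which blocks nitric oxide synthases, at 0.5 g/L for 15 weeks from 10 weeks of age (n = 4), and the controls were wild-type mice of the same age on chow (n = 4). Each group held both sexes, and genotype and aldosterone, like diet and L-NAME, came together and cannot be told apart. The models were sequenced in separate runs, so each treated group was set only against its own controls.

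The cytosolic ribosome reads mRNA with its small subunit and joins amino acids with its large subunit, and the stalk recruits the elongation factors. In mammals most of these mRNAs begin with a C followed by further C or T bases, the terminal oligopyrimidine tract, through which mTORC1 and the RNA-binding protein Larp1 control their translation together. Heart and skeletal muscle also express Rpl3l, a paralogue that takes the place of Rpl3 in the ribosome.

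The stretches around the annotated start of 6 members are shown because the results below turn on several of them, and because they show a start with and without a pyrimidine tract. They are from RefSeq on GRCm38.p6, 60 bases before the start and the first 20 from it, read 5′ to 3′ on the gene's strand. Capitals mark a run of at least 8 C or T letters that begins with C and lies within or across the 10 bases either side of the start.
Rpl15: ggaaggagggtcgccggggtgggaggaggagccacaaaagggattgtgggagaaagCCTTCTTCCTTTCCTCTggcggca
Rps6: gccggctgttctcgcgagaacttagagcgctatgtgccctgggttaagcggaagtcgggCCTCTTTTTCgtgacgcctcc
Rps27: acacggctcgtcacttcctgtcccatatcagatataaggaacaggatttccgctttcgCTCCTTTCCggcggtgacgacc
Rpl39: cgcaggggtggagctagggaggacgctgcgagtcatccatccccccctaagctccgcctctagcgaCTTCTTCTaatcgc
Rpl3l: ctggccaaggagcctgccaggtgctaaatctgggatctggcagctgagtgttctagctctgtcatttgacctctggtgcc
Rpl7l1: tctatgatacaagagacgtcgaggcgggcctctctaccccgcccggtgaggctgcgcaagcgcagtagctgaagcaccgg

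These stretches lie at chr14:18270967-18271046 (minus strand) for Rpl15, chr4:86857348-86857427 (minus) for Rps6 and chr3:90213629-90213708 (minus) for Rps27. Those of Rpl39, Rpl3l and Rpl7l1 lie at chrX:37085203-37085282 (minus), chr17:24727766-24727845 (plus) and chr17:46782637-46782716 (minus). The run of Rpl15 was 17 letters long, and no run of this kind lay at the starts of Rpl3l and Rpl7l1. A promoter entry was matched for 63 of the 86 members and was missing for 23, Rpl3, Rpl30 and Rps4l among them. Only the most upstream RefSeq start of each gene was read, so a run at another start of a member would be missed. The run was found in 22 of the 63 (34.9%), against 8.25% of the 27025 promoters in the same table. It lay in 20 of 56 members that are not paralogues (35.7%) and in 2 of 7 paralogues. The 6 starts shown therefore do not represent either kind. In the 250 bases before to 50 after the start, searched on both strands, CCGGAA was found in 31 members (49.2%, against 15.2% of all promoters) and AAGATGG in 10 (15.9%, against 6.46%). CACGTG was found in 5 (7.94%, against 7.24%) and TATAAA in 8 (12.7%, against 14.2%). These are matches of letters in a window and no test was made on them.

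The values are normalised read counts, that is, counts recovered from the deposited tables and divided by library size factors, and changes are on the scale of log2(normalised count + 1) with their standard error (SE). Libraries summed to between 21258779 and 25692431 counts, and 30.0% to 53.1% of these fell on genes of the mitochondrial genome. No source used here says more about independence than 1 whole-heart sample per label, so a p-value here reflects only how these samples vary, and in whole tissue fewer cells of a type and less RNA per cell cannot be told apart. A gene is called where limma's adjusted p, over all genes tested in the model, is under 0.05. Testing needed a mean over the model's libraries of 10 normalised counts or more, which kept 81 members with db/db+Aldo and 80 with HFD+L-NAME.

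The members not tested were low throughout. Rpl10l and Rps12l1 were at 0 in every library. Mean levels of Rpl24, a large-subunit protein gene, were 10.2 and 8.77 normalised counts in db/db+Aldo and sham hearts, and 7.68 in HFD+L-NAME and 7.55 in chow hearts. Rpl32l and Rpl39l stayed at group means under 2 normalised counts, and Rpl6l was tested only in the db/db model, with means of 5.04 in HFD+L-NAME and 6.08 in chow hearts. Rpl24, Rpl13a and Rps10 share 484, 621 and 475 exon bases with other genes annotated on the same strand, and ribosomal protein genes have many near-identical processed copies, so reads could be split between copies and the levels of these members are uncertain.

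Most members were abundant. Levels per kilobase of merged exon compare genes only roughly, since the merged length takes in every annotated exon of a gene, whichever transcripts are made. On this scale the sham mean was highest for the stalk gene Rplp1 (7794 ± 975 normalised counts per kilobase, SD, n = 7). The small-subunit gene Rps15 (6223) and Rplp0 (5274), the stalk's base, followed. Across roles the sham median was 889 normalised counts per kilobase in large-subunit genes, 827 in small-subunit genes and 17.0 in the paralogues. Rpl3l stood apart from the other paralogues, at 2161 ± 281 normalised counts per kilobase against 380 ± 62.1 for Rpl3, which ranked them 12 and 62 of 86. Their merged lengths were 1643 and 3175 bases, so the divisor widens this gap. Undivided, Rpl3l ranged from 2946 to 4268 normalised counts in sham hearts and Rpl3 from 894 to 1419. Rps4l (235) stood below its partner Rps4x (1471), the X-linked form of the small-subunit protein S4.

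Members varied together from library to library within a group. The summed level of all members was 212514 normalised counts in db/db+Aldo replicate 5, against 144065 to 160443 in the 7 other libraries of that group. It was 143740 to 188262 in sham, 171762 to 184792 in chow and 162344 to 186565 in HFD+L-NAME hearts. Replicate 5 thus stood alone above its group, while the ranges of treated and control groups overlapped in both models. Of 81 members tested, 78 (96.3%) were highest of the group in replicate 5, against 24.5% of all genes tested, with a median deviation of 0.43 on the log2 scale from the group mean. Replicate 5 was also lowest of the group in 28.6% of all genes tested, against 8.19% to 11.8% in the others, so it was extreme both ways.

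The same library was high in other lists. Mitochondrial ribosomal protein genes summed to 65114 normalised counts in db/db+Aldo replicate 5 and 46694 to 55290 in the rest of the group, and proteasome genes to 42827 and 32054 to 35836. Its red blood cell markers summed to 14277, the highest of the group, and its smooth muscle markers to 7397, also the highest. Their part in the height of the ribosomal protein genes was not tested.

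Libraries at the other extremes were sham replicate 7, highest of its group in 44 members (54.3%, against 15.0% of all genes), and sham replicate 3, lowest in 46 (56.8%, against 13.5%). db/db+Aldo replicate 1 was lowest in 43 members (53.1%, against 11.8%) and HFD+L-NAME replicate 1 lowest in 59 of 80 (73.8%, against 24.2%). Sham replicate 7 also had the lowest share of counts on the mitochondrial genome of all libraries, 30.0%. The median coefficient of variation of members was 13.7% in sham and 15.6% in db/db+Aldo, against 11.9% and 14.6% over all genes. In chow and HFD+L-NAME it was 6.08% and 8.09%, against 9.66% and 11.3% over all genes.

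**Figure D1:**
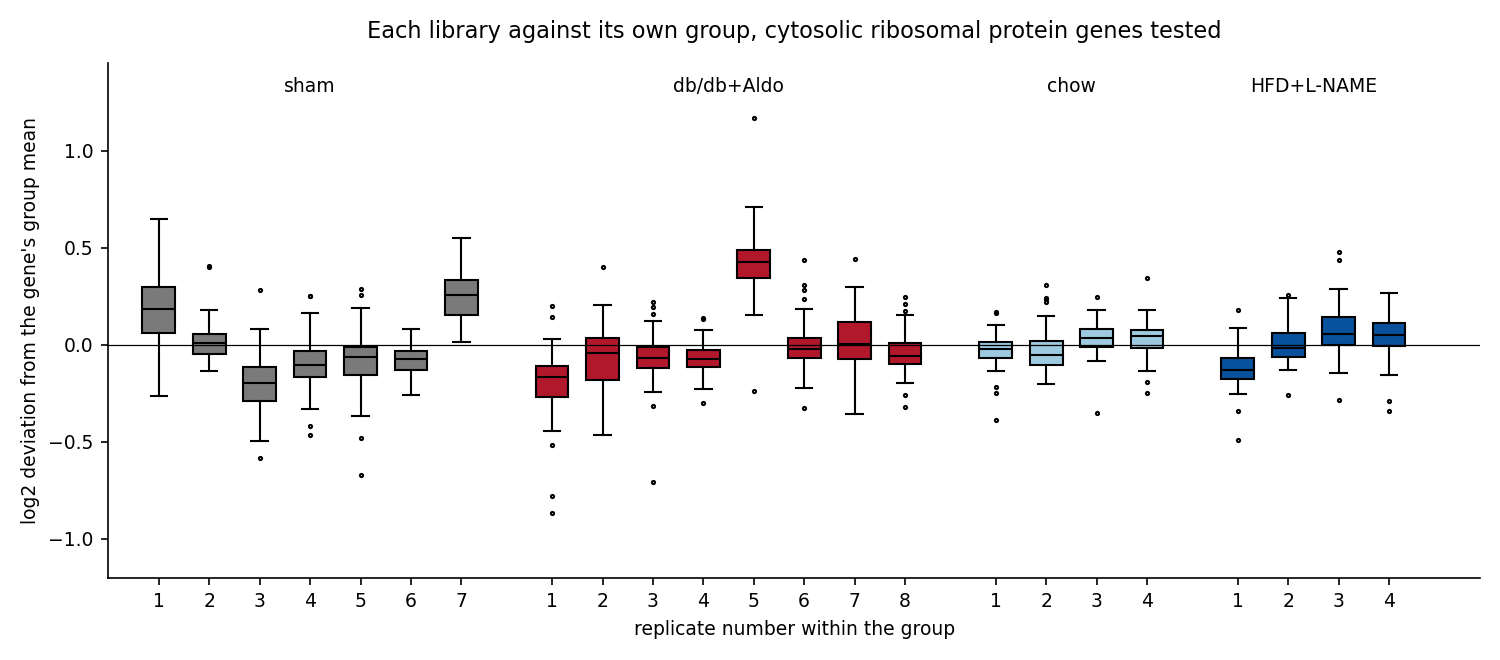
Box plot of the log2 deviation of each ribosomal protein gene from the mean of its own group (y axis), 1 box per library by replicate number (x axis), with the median as a line, the middle 50% of genes as the box, whiskers to the last gene within 1.5 box heights and points beyond. The box of db/db+Aldo replicate 5 sits highest, at a median of 0.43, and those of sham replicate 3 and db/db+Aldo replicate 1 sit lowest, at -0.20 and -0.17.

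The first comparison asked how ribosomal protein genes stood in hearts of db/db mice given aldosterone. Rps4l rose and Rpl3l fell, and both are among the paralogues, though GENCODE classes Rps4l as a transcribed processed pseudogene. No gene of the standard large subunit, small subunit or stalk was called. Thus 1 of 81 members was called higher and 1 lower, where 19.2% of the 14121 genes tested were called, 9.96% higher and 9.21% lower.

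Rps4l is named as a second form of small-subunit protein S4, but whether it makes a protein was not tested. It ranged from 187 to 289.6 normalised counts in sham hearts, with a median of 225, and from 244 to 396 in db/db+Aldo hearts, with a median of 317. The groups overlapped through sham replicate 1, the only sham library above the lowest treated library. The means were 315 ± 49.5 (SD, n = 8) and 222 ± 35.9 (SD, n = 7), a log2 change of 0.49 ± 0.101 (SE) with an adjusted p of 0.00196. The authors' deposited table gives a log2 change of 0.51 with an adjusted p of 0.000158. Rps4l (ENSMUSG00000063171) has 1 exon at chr6:148354656-148355598 on the plus strand of GRCm38, inside Tmtc1 on the opposite strand with no shared exon bases, and GENCODE classes it as a transcribed processed pseudogene. How reads were divided between it and the near-identical Rps4x is uncertain. Rps4x itself measured 2429 ± 222 and 2399.9 ± 252 normalised counts, a log2 difference of 0.01 with an adjusted p of 0.916.

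Rpl3l is the striated-muscle form of the large-subunit protein L3. It ranged from 2946 to 4268 normalised counts in sham hearts, with a median of 3646, and from 2348 to 3635 in db/db+Aldo hearts, with a median of 2699.9. The groups overlapped, but 5 of the 8 treated libraries were below the lowest sham library. The means were 2837 ± 462 and 3551 ± 461, a log2 change of -0.34 ± 0.098 with an adjusted p of 0.0208. The authors' deposited table gives -0.32 with an adjusted p of 0.0136. Without db/db+Aldo replicate 8, its lowest library, the change was -0.30 and the adjusted p 0.0533. The gene (ENSMUSG00000002500) lies at chr17:24727820-24736143 on the plus strand.

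Both calls were also read within the series that the library names form, the 2600s and the rest, of which the labels say nothing more. Rps4l measured 0.47 in the 2600s, with an adjusted p of 0.149, and 0.54 in the rest, with an adjusted p of 0.00824. Rpl3l measured -0.41 and -0.29, with adjusted p-values of 0.195 and 0.102, so neither series alone gave the call for Rpl3l. These fits hold fewer libraries than the pooled one.

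Scaling bears on the count of members called lower. Scaled by total counts, 0 members were called higher and 10 lower, but the median of all genes then lay at -0.22 and the calls over all genes moved from 1407 higher and 1300 lower to 556 higher and 4771 lower. The median of the members lay at -0.20, close to that of all genes. Rps4l measured 0.29 on that scale, with an adjusted p of 0.0609, and Rpl3l -0.54, with an adjusted p of 0.00228. Without scaling and with the values as deposited, the median of all genes lay at -0.27 and -0.28, the calls over all genes were 421 higher and 5104 lower, and 399 higher and 4901 lower, and Rps4l measured 0.24 and 0.25, with adjusted p-values of 0.158 and 0.178. Total-count scaling that left out the mitochondrial genome gave the same counts of members as the size factors. With db/db+Aldo 7 of 13 genes of the mitochondrial genome were called higher and 0 lower (6 and 1 without scaling), and the list summed to 8920258 to 14122804 normalised counts against 5306076 to 9394552 in sham hearts.

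Around these 2 genes, the members were spread closely about 0. The median log2 change was 0.00 over the 81 members and -0.02 over all genes tested, and 77 members (95.1%) lay within 0.2 of 0, against 61.8% of all genes. The middle 50% of members lay between -0.06 and 0.05, against -0.15 and 0.14 for all genes, while the median SE was 0.0965 for members and 0.101 for all genes. By role, the median was 0.01 in 42 large-subunit genes, -0.02 in 30 small-subunit genes and 0.00 in the 3 stalk genes. No member had groups that did not overlap, against 4.08% of all genes.

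In the stalk, Rplp0 measured 9198 ± 822 and 8750.0 ± 782 normalised counts in treated and sham hearts, a log2 difference of 0.07 with an adjusted p of 0.533. Rplp1, which pairs with Rplp2 on the stalk, measured 3659 ± 425 and 3889 ± 486, with an adjusted p of 0.464, and Rplp2 1455 ± 266 and 1443 ± 239, with an adjusted p of 0.990. In the small subunit, Rps6, the substrate of the S6 kinases, measured 1386 ± 236 and 1368 ± 207, with an adjusted p of 0.944. Rpsa, also known as the laminin receptor, measured 7517 ± 893 and 7975 ± 282, with an adjusted p of 0.357. None of these differences passed the test.

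Rpl5 and Rpl11 bind the ribosomal 5S RNA and, when free, the p53 regulator Mdm2. They measured 1861 ± 240 and 1361 ± 143 normalised counts in db/db+Aldo hearts, and 1739 ± 219 and 1319.85 ± 144 in sham hearts, with adjusted p-values of 0.503 and 0.744. Rps19, mutated in Diamond-Blackfan anaemia in humans, measured 743 ± 113 and 758 ± 175, with an adjusted p of 0.898. None of these was called, and the remaining genes named in any case (Rps2, Rps14, Rpl41, Rpl32, Rps28, Rps29, Rpl10 and Rpl13a) measured log2 differences between -0.11 and 0.09 with adjusted p-values of at least 0.397.

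At an unadjusted p under 0.05 there were 4 members of 81, against 32.1% of all genes, and the 2 not called were again a paralogue and a partner. Rpl7l1, a paralogue of Rpl7 whose relative in yeast works in ribosome assembly, ranged from 388 to 497 normalised counts in sham hearts and from 365 to 485 in db/db+Aldo hearts, with medians of 469 and 395. Its log2 difference was -0.20 ± 0.0749 with an adjusted p of 0.0698. Rpl3, the standard partner of Rpl3l, ranged from 894 to 1419 in sham hearts and from 1188 to 1649.6 in db/db+Aldo hearts, with medians of 1264 and 1443. Its log2 difference was 0.24 ± 0.0983 with an adjusted p of 0.0968. Both pairs of groups overlapped, and neither gene was called. A set of 5 libraries was placed in doubt after the data were seen, namely replicates 1 and 7 of the sham group, replicates 1 and 5 of db/db+Aldo, and replicate 3 of HFD+L-NAME. Without them, 3 members were called higher, Rps4l, Rpl12 and Rpl3, the last at 0.32 with an adjusted p of 0.0256. The set takes out the sham libraries highest in 31 and 44 of 81 members and keeps sham replicate 3, lowest in 46. From db/db+Aldo it takes out the libraries lowest in 43 and highest in 78. The median of members then lay at 0.05, against -0.01 over all genes, so these calls depend on which libraries were left out. In that fit 12.2% of all genes were called higher.

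The second comparison asked the same of mice on a high-fat diet with L-NAME. Rpl15 and Rpl30 fell, and both encode large-subunit proteins. No member was called higher, where 1.18% of the 13801 genes tested were called higher and 1.0% lower, 2.18% in all. At an unadjusted p under 0.05 there were 9 members of 80, against 15.3% of all genes.

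Rpl15 had the smallest p of the members. It measured 1373, 1298, 1392 and 1326 normalised counts in the 4 chow hearts, and 899, 1029, 1093 and 1039 in the 4 HFD+L-NAME hearts. All 4 treated hearts lay below all 4 controls. The means were 1347 ± 42.9 (SD, n = 4) and 1015 ± 82.1 (SD, n = 4), a log2 change of -0.41 ± 0.0652 with an adjusted p of 0.00722, and the authors' deposited table gives -0.41 with an adjusted p of 2.13e-05. Rpl15 (ENSMUSG00000012405) lies at chr14:18267823-18271391 on the minus strand of GRCm38. The RefSeq start printed above, at 18270986, lies inside this span and holds the longest run of C and T letters of the sequences shown.

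A gene on the opposite strand at the same place moved the other way. Nkiras1, which encodes an inhibitor of NF-kappa-B signalling and was looked up after the values were seen because it shares 105 exon bases with Rpl15, ranged from 253 to 295 normalised counts in chow hearts and from 434 to 475 in HFD+L-NAME hearts. Its groups did not overlap, and it rose by a log2 change of 0.74 ± 0.0798 with an adjusted p of 0.000552. With db/db+Aldo it measured 0.14 with an adjusted p of 0.156. Whether counting used the strand is not given in the sources used here, so reads of the shared bases cannot be told apart between these genes, and the part of 1 in the change of the other was not tested.

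Rpl30 measured 1183, 1527, 1276 and 1228 normalised counts in chow hearts and 574, 858, 984 and 574 in HFD+L-NAME hearts. The treated hearts again lay below all controls, with a wide spread among themselves. The means were 1303 ± 154 and 748 ± 207, a log2 change of -0.84 ± 0.162 with an adjusted p of 0.0218, and the authors' deposited table gives -0.80 with an adjusted p of 7.53e-05. Leaving out any 1 of chow replicates 2, 3 and 4 or HFD+L-NAME replicates 1 and 4 took the adjusted p to between 0.0504 and 0.0746, with changes of -1.01 to -0.70 over all 8 libraries left out in turn. The gene (ENSMUSG00000058600) lies at chr15:34440505-34443640 on the minus strand, and D730044K07Rik, which shares 616 exon bases on the opposite strand, measured means of 0 and 0.244 normalised counts in HFD+L-NAME and chow hearts.

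**Figure D2:**
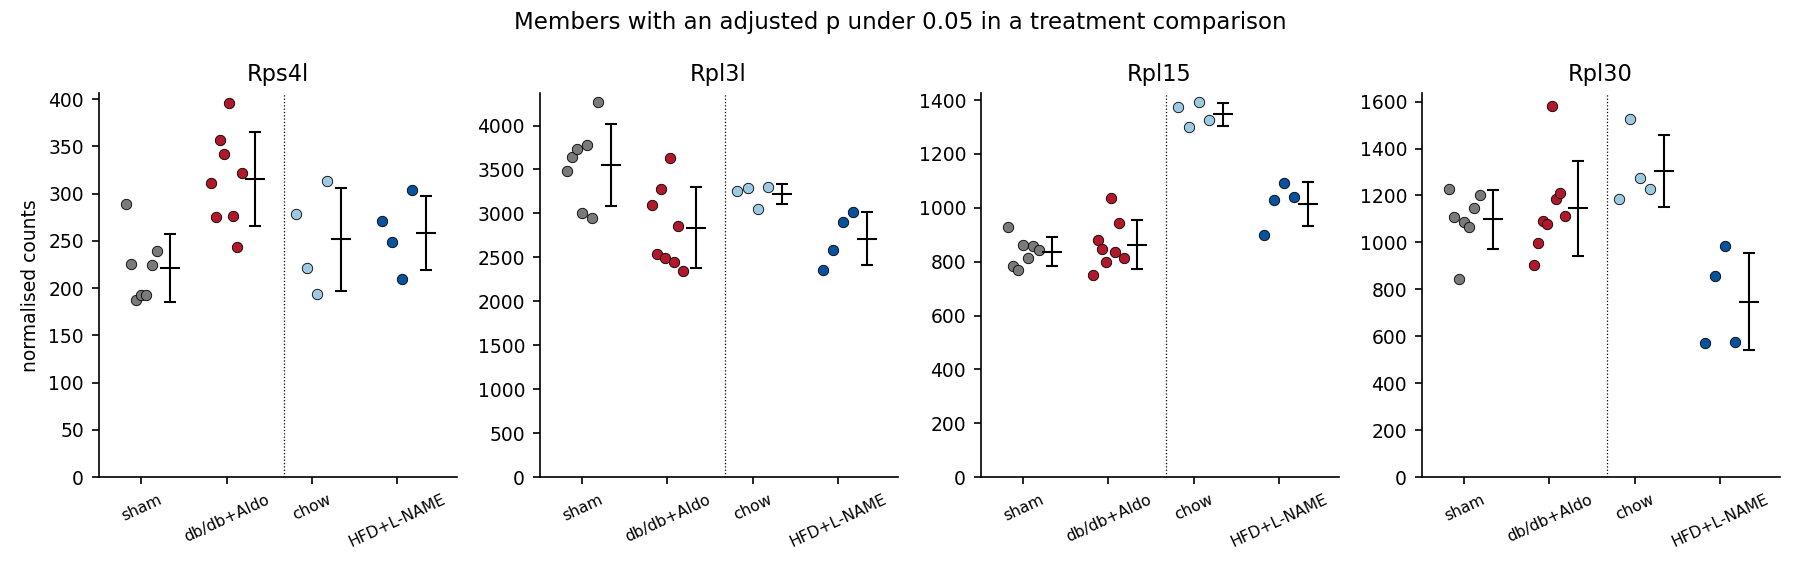
Normalised counts (y axis, from 0) of the 4 called members in each library (points) of the 4 groups (x axis), with the group mean and SD beside them and a dotted line between the models. Rps4l and Rpl3l overlap between db/db+Aldo and sham, while every HFD+L-NAME heart lies below every chow heart in Rpl15, Rpl30 and Rpl3l.

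Rpl3l, called with db/db+Aldo, measured 3251, 3291, 3054 and 3300.1 normalised counts in chow hearts and 2354, 2582, 2897 and 3019 in HFD+L-NAME hearts. The groups did not overlap, but the log2 difference of -0.25 ± 0.0708 had an adjusted p of 0.0949. Rpl37a, a large-subunit gene named here after its values were seen, was the other member whose groups did not overlap, at 922 to 1002 normalised counts in chow and 1039 to 1114 in HFD+L-NAME hearts, with an adjusted p of 0.249. Thus 4 of 80 members had groups that did not overlap, against 8.2% of all genes. Rpl3 measured 1238 ± 90.2 and 1076 ± 133, a log2 difference of 0.21 ± 0.0886 with an adjusted p of 0.285.

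The other members below the threshold leaned either way. Rpl23a, a large-subunit protein near the exit of the peptide tunnel and also named after its values were seen, measured 1106 to 1522 normalised counts in HFD+L-NAME hearts and 749 to 1213 in chow hearts, a log2 difference of 0.39 ± 0.126 with an adjusted p of 0.147. It passed the threshold when chow replicate 2 was left out. Of its 847 merged exon bases, 506 are shared with Tlcd1 on the opposite strand. Since the strand setting is not given, reads of these bases cannot be told apart between the 2 genes. Rps27 measured 1979.9 ± 118 and 2272 ± 148, a log2 difference of -0.20 ± 0.0672 with an adjusted p of 0.173. Rpl13a, a large-subunit protein that also takes part in translational control during inflammation, measured 133 ± 17.5 and 108 ± 14.4, with an adjusted p of 0.297. Rps10, at a log2 difference of -0.46 ± 0.291 and an adjusted p of 0.510, is the low-count gene whose exons overlap another gene.

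As a group the members again lay close to 0. The median log2 change was 0.01 over 80 members and 0.00 over all genes, and 72 members (90.0%) lay within 0.2 of 0, against 73.0% of all genes. The median SE was 0.0656 for members and 0.107 for all genes. Rplp0 measured 8283 ± 480 and 8648 ± 629, Rplp1 6424 ± 342 and 6004 ± 281, and Rplp2 1658 ± 41.3 and 1580.1 ± 144 normalised counts in HFD+L-NAME and chow hearts, with adjusted p-values of 0.666, 0.433 and 0.694. Rps6 measured 1631 ± 184 and 1773 ± 86.9, with an adjusted p of 0.391, Rpl11 1758 ± 176 and 1943 ± 125, with an adjusted p of 0.387, and Rpsa 9265 ± 921 and 9525 ± 390, with an adjusted p of 0.838. None of these differences passed the test.

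**Figure D3:**
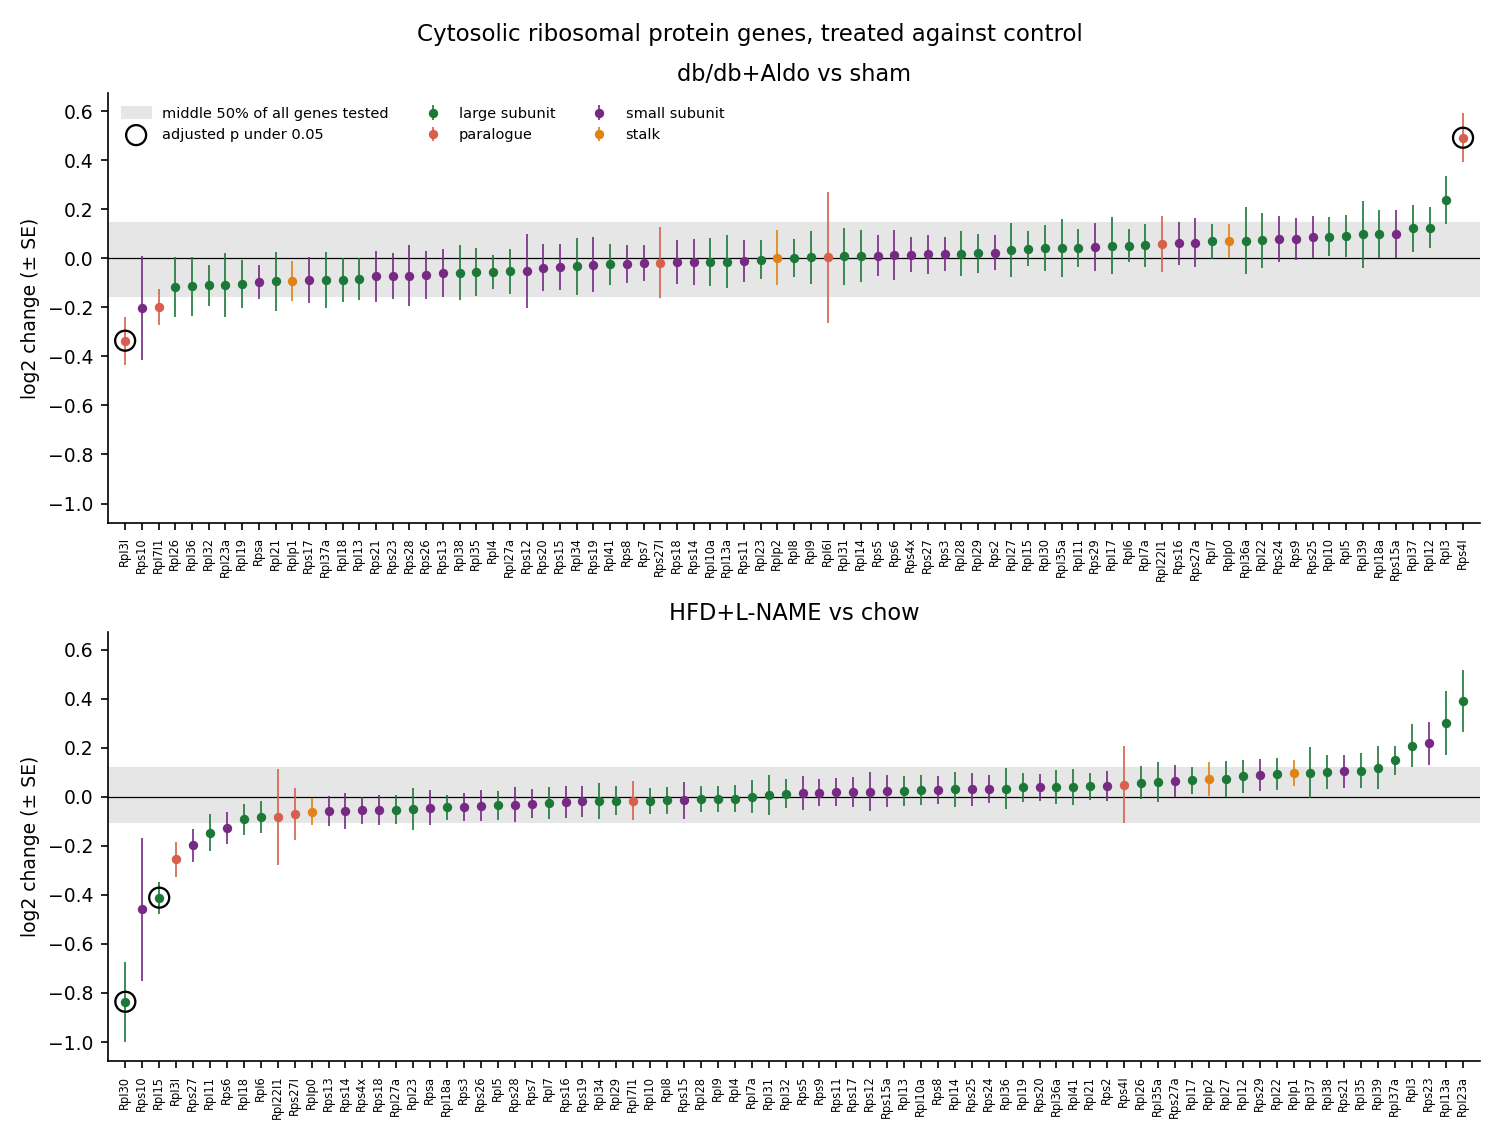
Log2 change with its SE (y axis) of each member tested (x axis, ordered by change, coloured by role) in db/db+Aldo against sham and in HFD+L-NAME against chow, with circles around genes at an adjusted p under 0.05 and a grey band for the middle 50% of all genes tested. Most points lie within the band, and the circled genes are Rps4l at 0.49 and Rpl3l at -0.34 with db/db+Aldo, and Rpl30 at -0.84 and Rpl15 at -0.41 with HFD+L-NAME.

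Paralogue and partner were then compared within each library as the log2 ratio of their normalised counts, which does not depend on scaling. These ratios were added after the gene-wise results were seen, for 5 pairs in both models, 10 comparisons in all, with two-sided exact permutation tests adjusted over the 10. Rps4l and Rpl3l were already called on their own, and Rpl7l1 already had a limma unadjusted p under 0.05 with db/db+Aldo. The ratios of these genes are therefore not separate evidence.

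With db/db+Aldo, 3 ratios differed. The ratio of Rps4l to Rps4x was higher by 0.49 on the log2 scale (exact permutation p = 0.000311, adjusted p = 0.00311), with all 8 treated hearts above all 7 sham hearts. Shares of a pair per kilobase depend on the merged exon lengths, so they are rough as absolute values. Per kilobase, counts assigned to Rps4l made up 18.3% ± 1.99 of the pair in treated and 13.7% ± 0.884 in sham hearts. The ratio of Rpl3l to Rpl3 was lower by a log2 difference of -0.57 (exact permutation p = 0.00653, adjusted p = 0.0218), with 5 of 8 treated hearts below all sham hearts. Rpl3l made up 79.2% ± 3.27 of that pair per kilobase in treated and 84.9% ± 3.11 in sham hearts. The ratio of Rpl7l1 to Rpl7 was lower by a log2 difference of -0.27 (exact permutation p = 0.00155, adjusted p = 0.00777), with 7 of 8 treated hearts below all sham hearts and shares of 8.63% ± 0.719 and 10.2% ± 0.685.

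Without the 5 libraries in doubt, the differences for Rpl3l and Rpl7l1 were -0.67 and -0.27, both with an adjusted p of 0.0577. The library series hold 7 and 8 libraries, which limits how small an exact p can be. Within the 2600s series the differences for Rpl3l, Rpl7l1 and Rps4l were -0.69, -0.27 and 0.37, each with an adjusted p of 0.190 (exact permutation). Within the rest they were -0.45, -0.26 and 0.60, with adjusted p-values of 0.333, 0.286 and 0.286 (exact permutation). The ratios of Rpl22l1 to Rpl22 and of Rps27l to Rps27 differed by -0.02 and -0.04, less than the spread between replicates. In the levels behind them, Rpl22l1 measured 40.0 ± 5.27 and 38.2 ± 1.91 normalised counts in db/db+Aldo and sham hearts, and Rps27l, which p53 induces, 252 ± 69.5 and 248 ± 38.0.

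With HFD+L-NAME, the ratio of Rpl3l to Rpl3 was lower by -0.46 on the log2 scale (exact permutation p = 0.0571, adjusted p = 0.143), in a design whose smallest possible p is 0.0286. Of the 4 treated hearts, 3 lay below all chow hearts. Rpl3l made up 80.8% ± 2.63 of the pair per kilobase in HFD+L-NAME and 85.3% ± 1.88 in chow hearts. Rpl39l and Rpl10l were too low to form a ratio with Rpl39 and Rpl10.

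**Figure D4:**
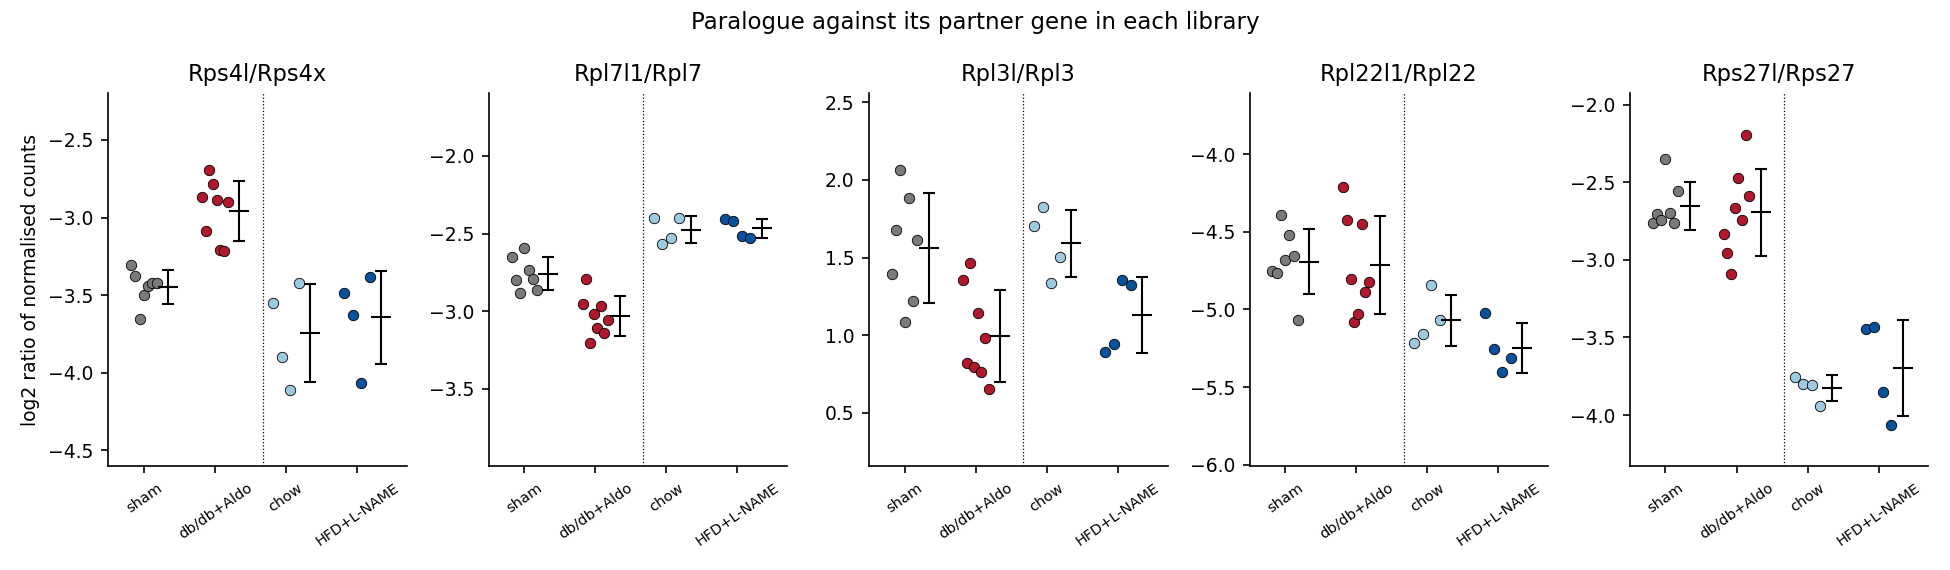
Log2 ratio of the normalised counts of a paralogue to those of its partner (y axis) in each library (points) of the 4 groups (x axis), for 5 pairs, with group mean and SD and a dotted line between the models. All 8 db/db+Aldo hearts lie above all sham hearts for Rps4l to Rps4x, and 7 of 8 lie below all sham hearts for Rpl7l1 to Rpl7.

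Whether the 2 treatments differed in their effect was tested directly, as the difference of the within-run changes. It was called for 2 of 81 members, Rpl30 at 0.88 ± 0.191 (adjusted p 0.00646) and Rpl15 at 0.45 ± 0.108 (adjusted p 0.0125), where 5.52% of the 14010 genes tested were called, 3.14% higher and 2.38% lower. Total-count scaling, which moved the median difference of all genes to -0.22, gave 0.67 for Rpl30 (adjusted p 0.0371) and 0.24 for Rpl15 (adjusted p 0.231). Without scaling, where that median also lay at -0.22, and on the deposited values, where it lay at -0.23, neither was called, with adjusted p-values of 0.0612 and 0.101 for Rpl30 and 0.346 and 0.159 for Rpl15. In db/db+Aldo hearts Rpl30 measured 1145 ± 202 normalised counts against 1098 ± 126 in sham hearts, a log2 difference of 0.04, and Rpl15 863 ± 90.6 against 837 ± 53.8, also 0.04. The difference for Rps4l was 0.45 with an adjusted p of 0.179, and that for Rpl3l was -0.08 with an adjusted p of 0.842, so no difference between models was shown for either.

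Sex did not separate the treatment effects at the threshold. For the interaction of sex and treatment 0 members were called in either model, where limma called 0.0% and 0.00725% of all genes. At an unadjusted p under 0.05 there were 0 members with db/db+Aldo, against 2.7% of all genes, and 7 with HFD+L-NAME, against 6.64%, where each combination of sex and group held 2 hearts. Among the 7, Rpl3 measured -0.46 with an adjusted p of 0.415. The authors' deposited tables of females against males within the treated groups call 0 members in either model, where they call 0.0331% and 0.524% of genes. In the treatment comparisons those tables call 1 member higher and 1 lower with db/db+Aldo, and 0 higher and 2 lower with HFD+L-NAME, where they call 18.8% and 2.54% of genes, and the 4 members are the same genes as above.

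The wider machinery of protein synthesis was read through lists of genes. Their counts stand beside 9.96% of all genes called higher and 9.21% lower with db/db+Aldo, and 1.18% and 1.0% with HFD+L-NAME. Total-count scaling, which moved the median of all genes with db/db+Aldo to -0.22 and called 3.93% of them higher and 33.7% lower, gave 20 lower of 30 ribosome assembly genes, 6 of 10 RNA polymerase I genes, 32 of 77 mitochondrial ribosomal protein genes and 9 of 37 proteasome genes, with 0 higher in each. On that scale 0 were higher and 6 lower of 17 translation factors with the 5′ tract, 1 and 11 of 21 other translation factors, 3 and 7 of 19 mTORC1 genes and 1 and 3 of 11 p53 targets, which like all genes shifted downwards.

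Among 30 genes of ribosome assembly, 8 fell and 0 rose with db/db+Aldo, at a median of -0.15 against -0.02 over all genes. Utp20, a component of the small-subunit processome, fell from 351 ± 18.9 to 267 ± 34.4 normalised counts (log2 change -0.40 ± 0.0798, adjusted p 0.00169). Nop2, a ribosomal RNA methyltransferase, and Tsr1, needed to mature the small subunit, fell by changes of -0.30 and -0.37, with adjusted p-values of 0.0109 and 0.0115. Leaving out 1 library gave 5 to 13 genes lower. There were 13 without db/db+Aldo replicate 5, where 12.4% of all genes were called lower. There were 5 without db/db+Aldo replicate 6 or 8 or sham replicate 5 or 7, where 6.76% to 8.07% were.

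Of 10 genes of RNA polymerase I and its factors, which transcribe ribosomal RNA, 3 fell and 0 rose with db/db+Aldo. The catalytic subunit Polr1a fell by a log2 change of -0.27, with an adjusted p of 0.0140, Taf1c by -0.40, with 0.0189, and Polr1b by -0.25, with 0.0260. With HFD+L-NAME, 0 of 30 assembly genes and 0 of 10 polymerase I genes were called, at medians of 0.06 and 0.04. The lists' difference between models was not tested.

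Among 17 translation factors and partners whose mRNAs carry the same 5′ tract, 2 rose and 0 fell with db/db+Aldo, the initiation factor subunits Eif3m (0.33, adjusted p 0.00427) and Eif3e (0.22, adjusted p 0.0482), at a median of 0.03. With HFD+L-NAME, Naca, a chaperone of new peptides at the ribosome, fell from 23774.5 ± 1746 to 18579 ± 2625 normalised counts (-0.36 ± 0.0712, adjusted p 0.0222), and the other 16 were not called. Among 21 other translation factors, 2 rose and 0 fell with db/db+Aldo, at a median of -0.05. Eef2k, the kinase that inhibits elongation factor 2, rose from 544 ± 63.0 to 861 ± 111 (0.66 ± 0.0908, adjusted p 4.75e-05), and the cap-binding Eif4e rose by 0.28, with an adjusted p of 0.00111.

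The list of mTORC1 signalling and regulators of ribosomal protein mRNAs moved in both directions with db/db+Aldo, with 3 of 19 higher and 5 lower. Ddit4, an inhibitor of mTORC1, rose from 534 ± 188 to 1133 ± 292 normalised counts (1.11 ± 0.174, adjusted p 0.000192). Eif4ebp1, a repressor of cap-dependent translation that mTORC1 inactivates, and Myc, a transcriptional activator of ribosome genes, rose by 0.51 and 0.66, with adjusted p-values of 0.000249 and 0.00746. Tsc1 and Tsc2, which restrain mTORC1, Rptor, a subunit of mTORC1, Eif4ebp2 and Larp1, which binds the 5′ tract, fell. Larp1 fell from 2946 ± 212 to 2575 ± 187 (-0.20 ± 0.0628, adjusted p 0.0340). Myc and Larp1 are given with values though they are outside the 3 called genes with the smallest p. Tsc1, within those 3, is only named. With HFD+L-NAME 0 of the 19 were called.

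Of 11 p53 targets, Cdkn1a (0.69) and Fas (0.39) rose and Aen (-0.38) fell with db/db+Aldo, with adjusted p-values of 0.00132, 0.0232 and 0.00278, and Btg2 rose with HFD+L-NAME (0.50, adjusted p 0.0251). Of 77 mitochondrial ribosomal protein genes tested, 0 rose and 4 fell with db/db+Aldo, at a median of -0.03, with Mrpl3 at -0.41 (adjusted p 0.000842), and 0 rose and 1 fell with HFD+L-NAME, Mrpl39 at -0.30 (adjusted p 0.0342). Of 37 proteasome genes tested, the inducible subunit Psmb10 fell with db/db+Aldo (-0.48, adjusted p 0.00587) and 0 were called with HFD+L-NAME.

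**Figure D5:**
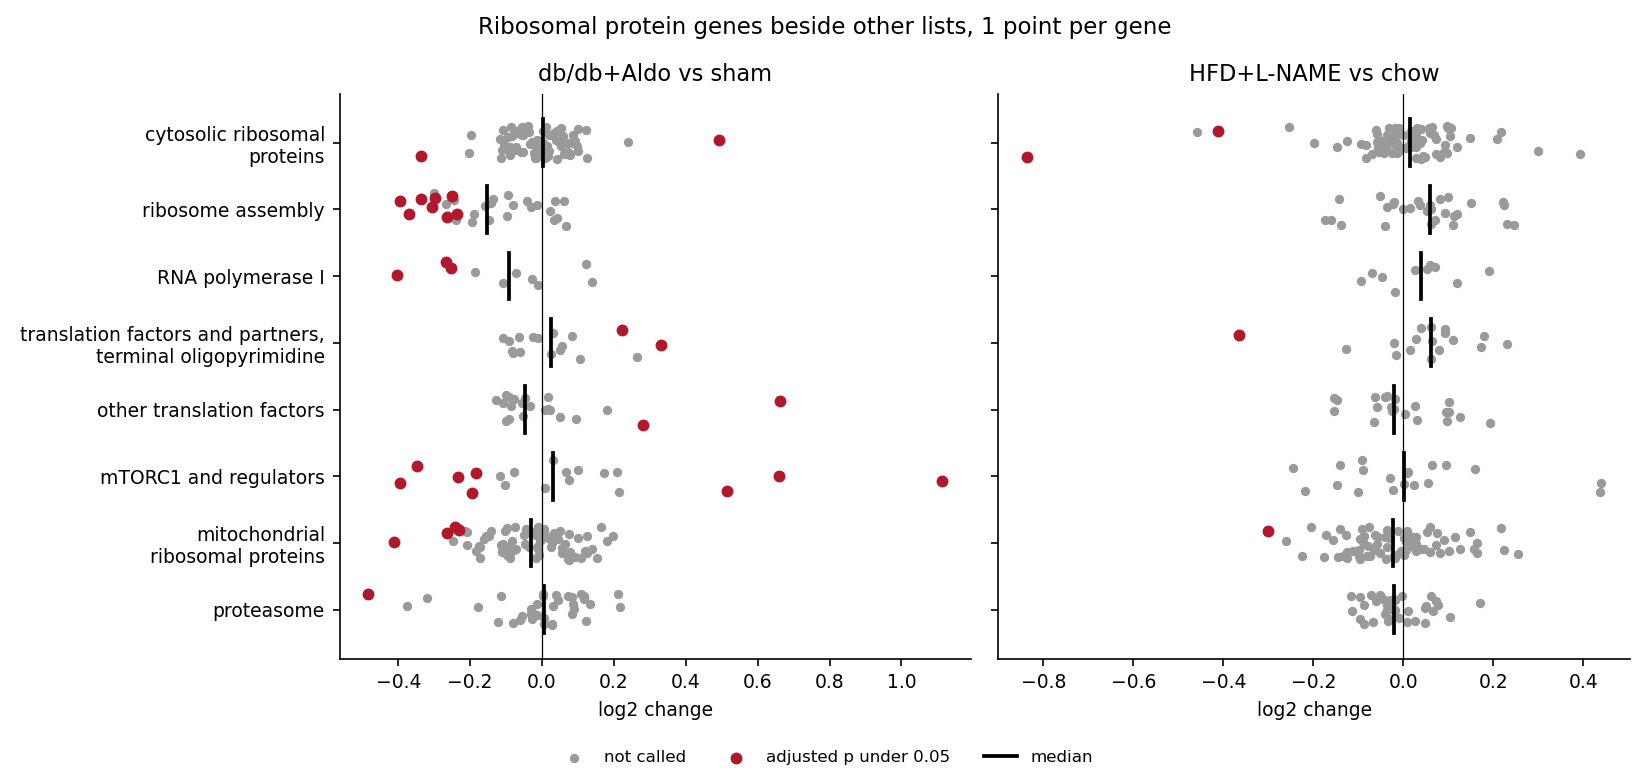
Log2 change (x axis) of each gene (points) in 8 lists (y axis), with the list median as a bar and genes at an adjusted p under 0.05 in red, for db/db+Aldo against sham and HFD+L-NAME against chow. With db/db+Aldo the ribosome assembly genes lie to the left of the cytosolic ribosomal proteins, at a median of -0.15 against 0.00.

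Markers of the heart's cell types were read beside these results. The cardiomyocyte list summed to 1059926 to 1258722 normalised counts in db/db+Aldo hearts and 1115885 to 1422347 in sham hearts, with all 8 genes tested and Myh6 lower. With db/db+Aldo, 4 of 8 fibroblast markers were higher, at sums of 19284 to 27607 against 17225 to 20444, and 2 of 9 macrophage markers were higher, at 5312 to 7494 against 4173 to 6389. Of 4 smooth muscle markers tested Acta2 was lower, and the sums of the list, 4882 to 7397 against 7827 to 10314, did not overlap. With HFD+L-NAME, 2 of 9 macrophage markers were higher, at sums of 5359 to 8205 against 5238 to 7040. Of the further lists tested with db/db+Aldo, 1 of 7 endothelial markers was higher and 1 lower, both adipocyte markers that passed the filter were lower, and 0 were called of 1 lymphocyte, 5 red blood cell and 3 Schwann cell markers. With HFD+L-NAME, 1 endothelial marker was higher and 1 Schwann cell marker lower, and 0 were called in the other lists. The part of these cell types in the changes of Rps4l, Rpl3l, Rpl15 and Rpl30 was not tested.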

How the data were processed

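Poly(A) RNA of 23 whole hearts was sequenced in paired-end reads, per the labels' protocols. Per the submitters' processing notes, featureCounts, limma and DESeq2 were used, on GRCm38 and mm10, and their roles are not stated. For the aligner, annotation and strand setting: not given in the sources used here. In the submission, the authors deposited a run-corrected table, whose score values proved to be whole counts from which each run's shift of the gene was taken (10.2% lay below 0), not the normalized expression assumed when the tests were chosen. The authors' comparison tables hold a mean signal of size-factor-scaled counts, a log2 fold change with its error, the Wald score and p-values, per the file headers.

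Counts were recovered from the deposited mean signal and size factors solved from single-read genes, to a tolerance of 0.001, for 52392 genes, and 3095 were left out. They were divided by the size factors. log2(normalised count + 1) was fitted per model with limma 3.58.1 in R 4.3.3 (variance trend, sex as covariate, Benjamini-Hochberg adjustment), for genes with a mean of at least 10. This fit was tested on simulated data. Of simulated log2 changes of 0.5 it recovered 81.8% in the db/db model and 70% in the diet model, and of changes of 1, 93.75% in each. False calls were 6 of 177 calls in the db/db model and 13 of 173 in the diet model. The rest used Python 3.11.15, scipy 1.17.1, numpy 2.4.6, matplotlib 3.10.9 and pandas 2.3.3. Positions are from GENCODE M21 on GRCm38. All pairs of replicates within a group differed beyond sampling noise (mean chi-square at least 7.07 per gene), so none repeated the counts of another. Each library counted once. Whether each came from a separate animal cannot be read from this check.

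Members, gene lists and tests were chosen with earlier results of these data known. Members named are the called ones, paralogue pairs, a fixed set of well-known genes, the most abundant and those with a library apart, and per list the 3 called genes with the smallest p. Others are marked where they appear. Alternatives were pseudocounts of 0.5 and 5, other filters and scalings, voom, no variance trend, no sex covariate, array weights, the replicate number as a block, library name series and leaving out libraries. The paralogue ratios were added after the data were seen. The result of 1 gene list is not reported here.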

Additional observations from a re-analysis of the deposited data

Results flagged for a closer look

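Of 146 values checked for a library far from the rest of its group, 20 met the criterion, which chance meets in about 1 of 20 groups. Most concern db/db+Aldo replicate 5. Its summed level of all members was 212514 normalised counts, and it lay apart in 14 of the genes named. These were Rpl10 (3553 normalised counts), Rpl11 (1674), Rpl13a (148), Rpl30 (1582), Rpl32 (2162), Rpl41 (2878) and Rpl5 (2379). They were also Rpl6l (29.8 normalised counts), Rpl7 (4189.7), Rplp1 (4599.7), Rps19 (1005), Rps28 (1023), Rps4x (2930.2) and Rps6 (1953).

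In the sham group, Rpl13a stood high in replicate 1 (145 normalised counts), Rps2 high in replicate 7 (9923) and Rpl30 low in replicate 3 (846). Chow replicate 1 was low for Rpl5, at 1455 normalised counts against 1539 to 1546 in the others. HFD+L-NAME replicate 3 was high for Rplp1, at 6937 normalised counts against 6243 to 6259.

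The effect of treatment differed between the models by a direct test for Rpl30, by 0.88 on the log2 scale, and for Rpl15, by 0.45, and in each case the lower value was that of HFD+L-NAME. The call for Rpl15 was lost under total-count scaling, and both were lost without scaling and on the deposited values.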

How the results depend on the processing

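No called member changed sign under any alternative run. Of 260 alternative values of counts and medians, 232 were counted as unchanged, and of 1707 values of single members 1624 were. A value counted as unchanged could still cross 0, as the median of members did when 1 library was left out. Of the called members, Rps4l was unchanged in 29 and Rpl3l in 30 of 33 settings. Rpl15 was unchanged in 22 and Rpl30 in 17 of 23. With db/db+Aldo, members called higher numbered 0 under total-count scaling, no scaling, the deposited values and the 2600s library series alone. Of all genes, 3.93%, 2.97%, 2.85% and 3.04% were called higher there. Without the libraries in doubt 3 members were called higher, beside 12.2% of all genes. Members called lower numbered 10 under total-count scaling, 16 without scaling, 5 on the deposited values, 2 with array weights and 0 in each library series alone. The median of members was -0.20, -0.25 and -0.24 under those 3 scalings, beside medians of all genes of -0.22, -0.27 and -0.28. Leaving out 1 library gave 1 to 1 higher and 0 to 2 lower, and a median of -0.06 to 0.04. It gave 0 lower without db/db+Aldo replicate 8, and 2, with Rpl7l1, without sham replicate 3 or db/db+Aldo replicate 5. In these fits 6.84%, 7.35% and 12.4% of all genes were called lower. With HFD+L-NAME, members called lower numbered 0 without the variance trend, beside 0.217% of all genes. Leaving out 1 library gave 0 to 1 higher (Rpl23a, without chow replicate 2) and 1 to 2 lower. Of all genes, 0.594% to 1.23% were then called higher and 0.435% to 0.992% lower. The difference between models was called for 1 member, Rpl30, under total-count scaling, 0 without scaling or on the deposited values, and 2 to 2 when 1 library was left out. The sex interaction stayed at 0 to 0. Of 135 values of the paralogue ratios, 127 were counted as unchanged. The cause of these changes was not tested, except that fits of 1 series hold fewer libraries.

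Correlations of same-numbered deviations ran from -0.22 to 0.11 in the db/db model and from 0.09 to 0.38 in the other. Same-numbered libraries mostly differed in sex in the db/db model and shared it in the diet model. Sex was left in these deviations, so the correlations cannot decide whether replicate numbers pair the samples. No library of the db/db model correlated best with its own number, and 2 of 4 pairs of the diet model did. With the replicate number as a block, 1 member was called higher and 1 lower with db/db+Aldo, beside 7.13% and 5.96% of all genes. With HFD+L-NAME 0 and 2 were, beside 0.804% and 0.688%. In that setting 1 member, Rpl30, differed between models, with an adjusted p of 0.0543 for Rpl15.

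With 4 hearts a group in the diet model, and 2 for each sex, the number of hearts limits the precision of a change. Genes with near-identical copies, and Rpl24, Rpl13a and Rps10, depend on how shared reads were counted.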
